A study of Mus musculus with 12 samples.

Results

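Hearts of Balb/cByJ and Balb/cJ mice were compared without pressure load, after a sham operation. The comparison rests on 6 of the 12 libraries of the series, 3 of sham Balb/cByJ hearts and 3 of sham Balb/cJ hearts, taken by strain and surgery as labelled. The other 6 libraries, 3 per strain, came from hearts that worked against an aorta narrowed by surgery (transverse aortic constriction, TAC). Every group was fed a 10 kcal% fat diet, begun 4 days ahead of the operation, and the hearts were collected 1 week later. Balb/cByJ is the substrain with a deletion in Acads, and Balb/cJ served as its counterpart. The labels used here give neither ages nor how many animals a library holds, so p-values reflect the variation among libraries, which may be technical. The deletion and all other differences between the substrains cannot be told apart in this design.

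Balb/cJ and Balb/cByJ descend from one inbred strain and have been bred apart for decades, so that their genomes differ at few places. Acads encodes short-chain acyl-CoA dehydrogenase, which oxidises butyryl-CoA in the last turns of mitochondrial fatty acid oxidation, the main energy source of the adult heart. Balb/cJ is also known for low expression of Zhx2, a zinc-finger and homeobox repressor of fetal liver genes.

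Values are read counts that the authors scaled per library and rounded, and they are called normalized values here. Differences are in log2(value + 1), coded as Balb/cByJ minus Balb/cJ, with the standard error (SE). A gene was called when the Benjamini-Hochberg adjusted p of limma, over 14038 genes tested, was under 0.1.

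Libraries stood apart in 2 respects that touch the results. Markers of atrial muscle separated the sham groups. Myl7, the atrial regulatory myosin light chain, had values of 6, 13 and 11 in sham Balb/cJ and 4670, 14508 and 237 in sham Balb/cByJ. It was also high in the TAC libraries of both strains, at 2381, 15126 and 9598 in Balb/cJ and 640, 30930 and 14285 in Balb/cByJ. The 3 sham Balb/cJ libraries were thus the low ones among all 12. Secondly, the library labelled TAC Balb/cByJ 6 had Balb/cJ-like values at genes that separated the strains. Its Zhx2 value was 48 and its Dnah17 value 2, against 728 and 838 and 953 and 826 in the other TAC Balb/cByJ libraries. It is shown with the TAC values below, and strain differences after TAC are given without it. Sums of normalized values ran from 28979605 to 34157613 in sham Balb/cJ and from 27790037 to 31092208 in sham Balb/cByJ.

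Acads, on chromosome 5, was detected in both substrains. Its values were 9033, 10928 and 10628 in sham Balb/cJ and 6929, 6234 and 6925 in sham Balb/cByJ, and the groups did not overlap. The log2 difference was -0.60 ± 0.15 (SE, n = 3 per group), with an adjusted p of 0.0453 by limma. A gene-level value does not show which part of the transcript was read, so it does not check the deletion itself. Its call was lost when library 2 or 3 of sham Balb/cJ, or library 2 of sham Balb/cByJ, was left out, with log2 differences of -0.57 to -0.55 and adjusted p of 0.11 to 0.17 by limma. After TAC the difference was -0.31 ± 0.17 and was not called, at an adjusted p of 0.628 by limma.

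Across the transcriptome, 1175 genes were called between the sham groups, 8.37% of those tested. Of these, 599 (4.27% of genes tested) were higher in Balb/cByJ and 576 (4.1%) lower. The higher genes had the larger differences: 268 differed by more than 2-fold and 120 by more than 4-fold, against 98 and 20 of the lower genes. Median log2 differences were 0.89 and -0.51. The sham groups did not overlap for 588 of the higher and 574 of the lower genes, and for 27.2% of all genes tested. With all libraries rescaled to equal totals, which shifted the median gene to 0.08, 690 genes were higher and 282 lower. The calls depended on single libraries: 321 were made without sham Balb/cJ 2, 411 without sham Balb/cByJ 2, 623 without sham Balb/cByJ 1 and 636 without sham Balb/cByJ 3. With the mean log2 level of Myl7, Sln and Myl4 as a covariate, which itself separated the sham groups, 35 genes were called. Among the 132 called genes that the naming rule took, 56 kept the call without each sham library in turn. The other 76 lost it in 1 or more of those fits: 73 without sham Balb/cJ 2, 62 without sham Balb/cByJ 2, 43 without Balb/cByJ 3, 41 without Balb/cByJ 1, 40 without Balb/cJ 3 and 13 without Balb/cJ 1. With the atrial covariate 10 of the 132 kept it, namely C7, Col22a1, Dbh, Edn3, Grin2c, Hp, Islr2, Kcnd2, Lrrn4 and Wif1.

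Strain differences seen after sham mostly kept their direction after TAC. The TAC libraries also entered the sham comparison, through the spread estimated over all 4 groups. Of the 1175 genes, 1044 (88.9%) had the same sign after TAC without library 6, compared with 64.1% of all genes tested. With all TAC libraries the number was 1042. The median log2 difference after TAC was 0.33 for the genes higher after sham and -0.21 for those lower, against the 0.89 and -0.51 by which they had been called. Without library 6, 75 genes (0.534% of genes tested) were called after TAC, and 52 of them were also called after sham in the same direction (31 higher, 21 lower). They made up 69.3% of the TAC calls and 4.43% of the sham calls. With library 6 included, 1 gene was called after TAC (0.00712%), Dbh. Leaving out any other TAC library in its place gave at most 61 calls.

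**Figure D1:**
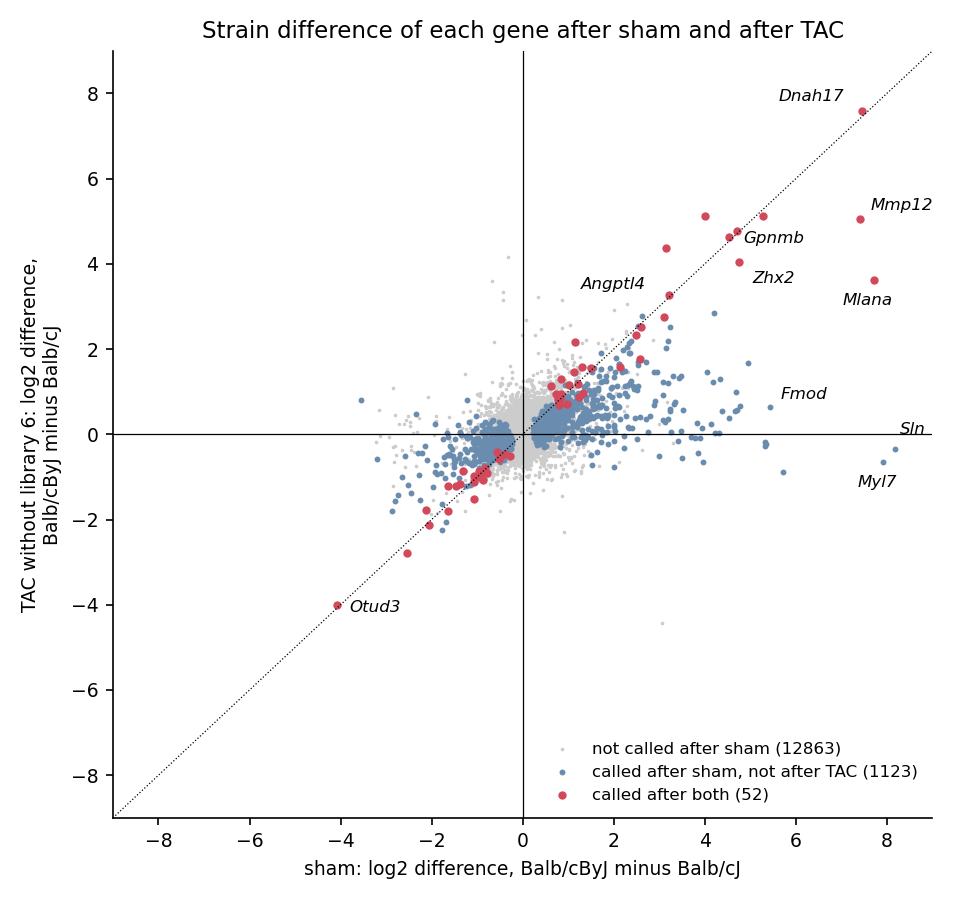
Log2 difference of each tested gene between Balb/cByJ and Balb/cJ, after sham on the horizontal axis and after TAC without library 6 on the vertical axis. The 52 genes called after both surgeries (red) mostly lie near the dotted line of equal differences, with Mmp12 and Mlana below it, while Sln, Myl7 and Fmod, called after sham, lie near 0 after TAC.

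Among the genes called after both surgeries were several with almost no expression in one substrain. Zhx2, on chromosome 15, had values of 36, 32 and 21 in sham Balb/cJ and 837, 767 and 831 in sham Balb/cByJ. The log2 difference was 4.76 ± 0.78 after sham (adjusted p = 0.00833, limma) and 4.05 ± 0.20 after TAC without library 6 (adjusted p = 2.01e-06, limma). The SE after sham comes from the spread shared among all 4 groups, library 6 included. Of 4 tested genes on a list of Zhx2 and its known mouse liver targets, Zhx2 and Gpc3 were higher and none lower. Zhx2 is itself among the 4, so Gpc3 was the only target called, where 8.37% of all genes were called. Gpc3, a heparan sulphate proteoglycan, rose from 120, 97 and 69 to 179, 161 and 192 (0.92 ± 0.20). It was thus higher in the substrain with the higher level of its repressor Zhx2. After TAC without library 6 the Gpc3 difference was 0.54 ± 0.24, not called. Afp, the fetal liver albumin homologue that Zhx2 is known to repress, was listed at 0 to 1 in sham Balb/cJ and 0 to 2 in sham Balb/cByJ.

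Dnah17, an axonemal dynein heavy chain on chromosome 11, had values of 11, 5 and 1 in sham Balb/cJ and 805, 944 and 1019 in sham Balb/cByJ. The log2 difference was 7.45 ± 1.63 (adjusted p = 0.0279, limma), and after TAC without library 6 it was 7.58 ± 0.54. Leaving out sham Balb/cJ 2 gave 7.55 at an adjusted p of 0.1013 by limma. Its neighbour Cyth1, an exchange factor for ARF GTPases, was lower in Balb/cByJ, with 2305, 2274 and 2255 against 957, 779 and 890 (-1.38 ± 0.28). Otud3, a deubiquitinase on chromosome 4, showed the opposite pattern to Zhx2, with 219, 209 and 225 in sham Balb/cJ and 12, 10 and 14 in sham Balb/cByJ. Its log2 difference was -4.08 ± 0.70 after sham (adjusted p = 0.00935, limma) and -4.01 ± 0.20 after TAC without library 6.

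On chromosome 17, Btbd9, Glo1, Dnah8 and the predicted gene Gm10503 lay within 1 Mb of one another and were all higher in Balb/cByJ. These neighbours were picked out after their values were seen. Glo1, the glyoxalase that detoxifies methylglyoxal, had values of 2469, 3237 and 2913 in sham Balb/cJ and 6570, 6952 and 7734 in sham Balb/cByJ. The difference of 1.31 ± 0.32 was called at an adjusted p of 0.0437 by limma. It was 1.24 to 1.40 and not called when library 2 of sham Balb/cJ, or library 2 or 3 of sham Balb/cByJ, was left out. Gm10503 was listed at 0 in all 6 Balb/cJ libraries and in library 6, and at 33 to 42 in the other 5 Balb/cByJ libraries. Other neighbours within 1 Mb were Surf4, Rexo4 and Dbh on chromosome 2 and Zhx2, Klhl38 and Anxa13 on chromosome 15. In all, 12 of the 52 genes had another of them within 1 Mb. The share of all tested genes with such a neighbour was not computed. For 51 of the 52, the 5 other Balb/cByJ libraries lay apart from the 6 Balb/cJ libraries. The 52 were called on these same libraries, so that separation largely follows from how they were picked. For 29 of the 52, library 6 lay within the range of the Balb/cJ libraries, and for 3 within that of the other Balb/cByJ libraries.

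**Figure D2:**
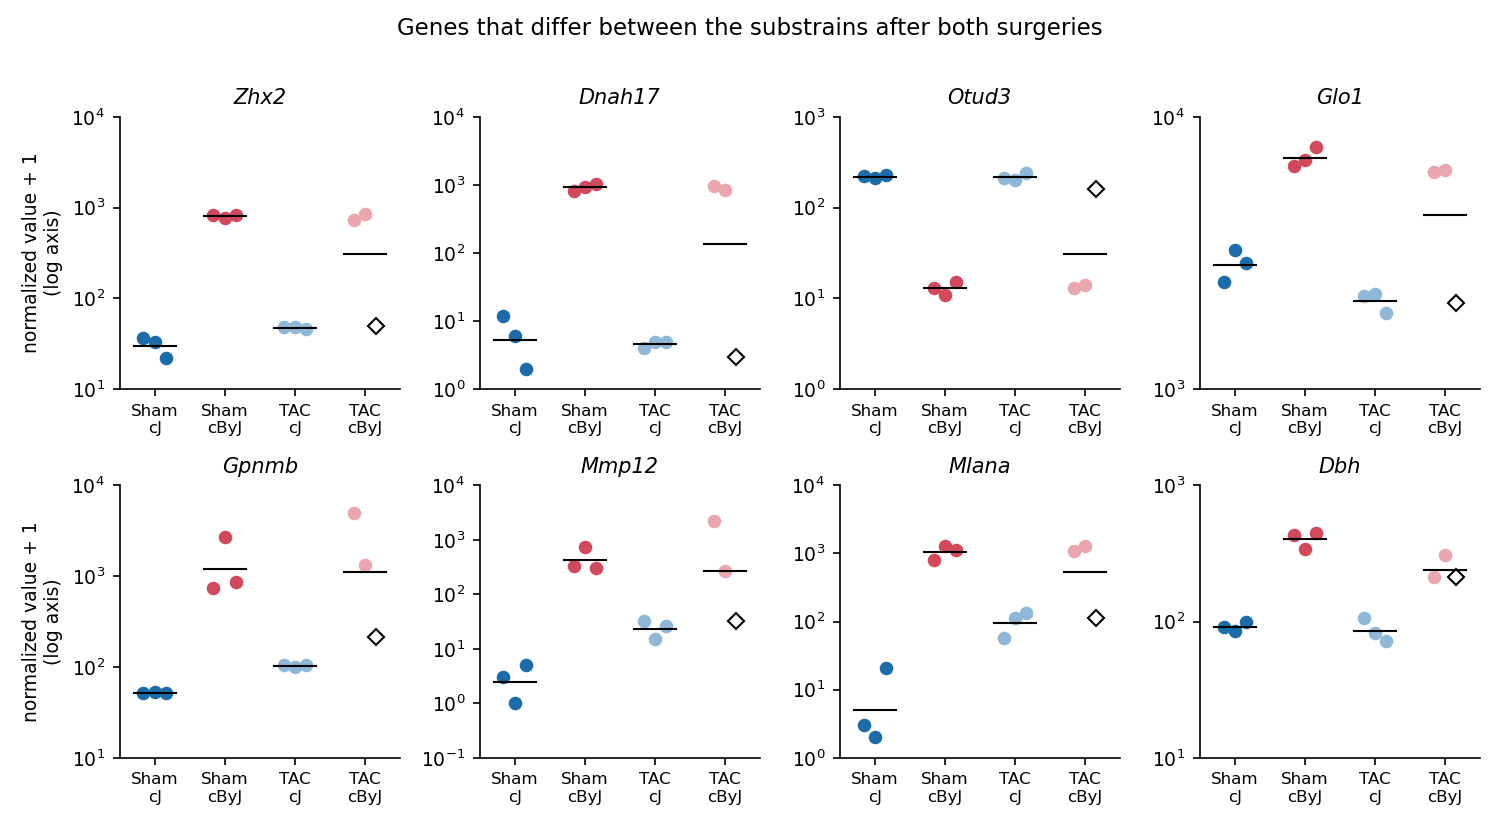
Normalized value + 1 on log axes for 8 genes called after both surgeries, in the 4 groups of 3 libraries. Circles are libraries, the open diamond is the library labelled TAC Balb/cByJ 6, and lines are means of the log values, with that library included. Zhx2 is at 21 to 36 in sham Balb/cJ and 767 to 837 in sham Balb/cByJ, and the open diamond lies nearer Balb/cJ in every panel but that of Dbh.

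Called genes were spread over the genome. On the autosomes and the X chromosome the share of tested genes called ran from 6.42% on chromosome 16 to 11.5% on chromosome 19, where 56 of 489 were called (18 higher, 38 lower). On the Y chromosome 1 of 5 tested genes was called, and none of the 12 tested mitochondrial genes was. Among 5 Mb windows with at least 10 tested genes, the one with the largest share lay at 10 to 15 Mb of chromosome 3, with 4 of 12 genes called. It held Fabp5, Car2 and Car3, which were higher, and Lrrcc1, which was lower. Fabp5, a fatty acid binding protein, had values of 295, 277 and 247 in sham Balb/cJ and 438, 492 and 422 in sham Balb/cByJ. Its difference was 0.72 ± 0.15 after sham and 0.95 ± 0.13 after TAC without library 6. Carbonic anhydrases Car2 and Car3 lost the call without any of 5 sham libraries each, with differences of 0.69 to 0.78 and 2.49 to 3.56 in those fits.

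Genes known from lipid-laden macrophages and osteoclasts, put together after their values were seen, were low in sham Balb/cJ and high in sham Balb/cByJ. Gpnmb, a lysosomal glycoprotein, had values of 51, 52 and 51 in sham Balb/cJ and 732, 2710 and 870 in sham Balb/cByJ. The difference was 4.52 ± 0.83 (adjusted p = 0.0126, limma). Mmp12, the macrophage elastase, was at 2, 0 and 4 against 325, 727 and 309, a difference of 7.41 ± 1.13 (adjusted p = 0.0063, limma). That size depends on the pseudocount, being 7.88 with 0.5 and 5.96 with 5 in place of 1. In both genes sham Balb/cByJ 2 was the highest library, and the groups did not overlap.

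In the next genes sham Balb/cByJ 2 was again the highest library. Spp1, the secreted matrix protein osteopontin, had values of 15, 14 and 10 in sham Balb/cJ and 257, 1125 and 270 in sham Balb/cByJ, a difference of 4.95 ± 0.90. Itgax, which encodes the integrin CD11c, went from 11, 8 and 3 to 76, 340 and 103, a difference of 4.21 ± 0.79. Atp6v0d2, a subunit of the lysosomal proton pump, went from 2, 4 and 2 to 78, 161 and 61, a difference of 4.70 ± 0.84. All 3 were called at adjusted p of 0.0115 to 0.0144 by limma and kept the call without each sham library in turn, as did Gpnmb and Mmp12. Gpnmb, Mmp12 and Atp6v0d2 were also called after TAC without library 6, at 4.63 ± 0.54, 5.06 ± 0.83 and 4.77 ± 0.66. Spp1 and Itgax were not called there, at 1.68 ± 0.65 and 2.85 ± 0.77. Tfe3, which encodes a transcription factor of lysosomal genes, was lower in sham Balb/cByJ, at 440, 495 and 454 against 844, 802 and 732 (-0.77 ± 0.23).

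The upstream sequences of Dnah17, Otud3 and 4 of these macrophage genes are shown as examples, chosen after their values were seen, of genes low in one substrain and high in the other. Each is the 250 bases before the RefSeq start site (build GRCm38.p6, read 5′ to 3′ on the gene's strand), at chr11:118129220-118129469 on the minus strand for Dnah17, chr4:138913969-138914218 (minus) for Otud3, chr9:7347124-7347373 on the plus strand for Mmp12, chr7:128129300-128129549 (plus) for Itgax, chr6:49036268-49036517 (plus) for Gpnmb and chr5:104434861-104435110 (plus) for Spp1. Capitals mark matches, on either strand, to the AP-1 motif TGANTCA, the E-boxes CACGTG and CATGTG, which MITF-family factors can bind, or the PU.1 core GAGGAA.
Dnah17: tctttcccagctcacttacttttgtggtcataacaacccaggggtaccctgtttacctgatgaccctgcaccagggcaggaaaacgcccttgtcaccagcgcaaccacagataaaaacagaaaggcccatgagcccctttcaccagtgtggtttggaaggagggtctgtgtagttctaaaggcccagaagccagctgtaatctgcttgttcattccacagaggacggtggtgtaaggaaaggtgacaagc
Otud3: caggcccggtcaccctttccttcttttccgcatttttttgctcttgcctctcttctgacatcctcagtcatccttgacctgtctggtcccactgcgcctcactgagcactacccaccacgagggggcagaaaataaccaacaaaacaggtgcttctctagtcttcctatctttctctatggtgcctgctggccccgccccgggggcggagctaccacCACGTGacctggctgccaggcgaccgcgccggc
Mmp12: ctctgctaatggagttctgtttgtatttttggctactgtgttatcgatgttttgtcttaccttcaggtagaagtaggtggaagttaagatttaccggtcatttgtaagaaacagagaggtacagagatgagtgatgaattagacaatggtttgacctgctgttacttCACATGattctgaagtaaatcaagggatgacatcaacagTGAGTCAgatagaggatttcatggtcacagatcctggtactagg
Itgax: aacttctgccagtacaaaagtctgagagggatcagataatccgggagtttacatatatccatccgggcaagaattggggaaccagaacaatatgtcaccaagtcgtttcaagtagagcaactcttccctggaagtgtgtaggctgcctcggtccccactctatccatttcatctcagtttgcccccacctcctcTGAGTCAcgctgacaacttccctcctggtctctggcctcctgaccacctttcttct
Gpnmb: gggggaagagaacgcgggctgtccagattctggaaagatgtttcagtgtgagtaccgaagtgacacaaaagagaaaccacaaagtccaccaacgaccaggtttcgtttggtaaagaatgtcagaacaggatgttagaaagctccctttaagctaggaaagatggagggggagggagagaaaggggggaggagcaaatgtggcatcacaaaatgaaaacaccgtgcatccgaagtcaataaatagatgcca
Spp1: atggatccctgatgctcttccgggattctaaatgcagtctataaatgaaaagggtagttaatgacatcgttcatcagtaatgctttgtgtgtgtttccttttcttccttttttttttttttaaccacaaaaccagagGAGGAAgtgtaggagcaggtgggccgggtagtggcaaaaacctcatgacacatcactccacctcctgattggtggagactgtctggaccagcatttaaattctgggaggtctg
An AP-1 match lay 44 bases before the start of Mmp12 and 56 before that of Itgax, and 6.75% of 32851 promoters of this length hold one. Mmp12 also had the E-box CATGTG (12.3% of promoters), read here as CACATG, and Otud3 had CACGTG 33 bases before its start (6.02%). Spp1 had the PU.1 core at 113 bases (23.3%). Gpnmb and Dnah17 had no match to these letters in this window.

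Of 31 macrophage and monocyte markers, 30 passed the filter on low values, 6 were higher (Mmp12, Gpnmb, Ccr2, Lyz1, Ctss and Mpeg1), where 4.27% of all genes were higher, none was lower, and the median difference was 0.25, against -0.01 over all genes. Calls of Ccr2, Lyz1, Ctss and Mpeg1 were lost without 1 or more of sham Balb/cJ 2, Balb/cJ 3, Balb/cByJ 1 and Balb/cByJ 2, with differences of 0.75 to 1.95 there. Adgre1 (F4/80), a pan-macrophage marker, had values of 207, 141 and 113 in sham Balb/cJ and 205, 371 and 159 in sham Balb/cByJ, and was not called at 0.62 ± 0.29. Cd68 was at 227, 187 and 132 against 232, 540 and 247, at 0.82 ± 0.33, also not called. Values of the whole list summed to 13066 to 19650 per sham Balb/cJ library and 16100 to 28002 per sham Balb/cByJ library. In heart tissue of mixed cell types, fewer cells of a type and less RNA per cell cannot be told apart.

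Pigment-cell genes split. Mlana, a melanosome protein, was at 2, 1 and 20 in sham Balb/cJ and 802, 1271 and 1126 in sham Balb/cByJ, a difference of 7.71 ± 0.92 (adjusted p = 0.00181, limma). Dct, a melanin synthesis enzyme, ran the other way, at 326, 480 and 356 against 126, 46 and 87, a difference of -2.25 ± 0.31 (adjusted p = 0.0044, limma). Edn3, an endothelin that acts on melanoblasts and neural crest cells, also fell, from 168, 133 and 123 to 29, 21 and 10 (-2.87 ± 0.41). The melanocyte genes Tyr and Tyrp1 were at 0 to 1 in all sham libraries. Of 10 pigment-cell genes 7 passed the filter, and 2 of them were higher (Mlana, Gpnmb) and 1 lower (Dct). The share called was 42.9%, against 8.37% over all genes. Mlana had 57 to 133 in TAC Balb/cJ, above sham Balb/cJ, and its difference after TAC without library 6 was 3.63 ± 0.76.

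Of 17 tested nerve and Schwann cell markers 2, Dbh and Npy, were higher and none was lower (11.8% called, near the 8.37% over all genes). Dbh, dopamine beta-hydroxylase, which makes noradrenaline, had values of 91, 84 and 98 in sham Balb/cJ and 431, 341 and 443 in sham Balb/cByJ. The difference of 2.13 ± 0.19 (adjusted p = 0.000542, limma) was called after TAC as well, with 105, 81 and 71 in Balb/cJ against 211, 309 and 212 in Balb/cByJ. Npy, the co-transmitter neuropeptide Y, went from 2, 7 and 2 to 34, 70 and 23 (3.23 ± 0.58). Th, the enzyme that begins the same pathway, was at 1, 0 and 0 in sham Balb/cJ and at 0 in every sham Balb/cByJ library, too low to be tested.

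Genes of fatty acid oxidation around Acads were not called. Of 15 acyl-CoA dehydrogenases and electron acceptors, Acads alone was called (6.67%, against 8.37% over all genes), and the median difference was 0.13. Acadm, the medium-chain enzyme, was at 31785, 35771 and 36507 in sham Balb/cJ and 42243, 36325 and 44439 in sham Balb/cByJ, a difference of 0.24 ± 0.19. None of 36 genes of fatty acid uptake and beta-oxidation was called (median 0.12), among them Cpt1a, the carnitine transferase, at 0.47 ± 0.16 with an adjusted p of 0.11 by limma. None of 78 nuclear oxidative phosphorylation subunits was called either. Their differences were small and mostly negative, with a median of -0.23 and 5 above 0. Their summed levels overlapped, at 1660120, 2369900 and 1981830 in sham Balb/cJ and 1847360, 1599860 and 1844080 in sham Balb/cByJ.

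Targets of PPAR, the fatty acid-sensing receptors, were higher at 3 of 25 tested genes and lower at none. The share called was near the 8.37% over all genes. Angptl4, a secreted inhibitor of lipoprotein lipase, went from 135, 160 and 81 to 1408, 1403 and 708 (3.20 ± 0.83) and was 3.26 ± 0.61 after TAC without library 6. Its call was lost without sham Balb/cJ 2, Balb/cJ 3, Balb/cByJ 1 or Balb/cByJ 2, at 2.92 to 3.41. Ehhadh, a peroxisomal beta-oxidation enzyme, rose from 312, 317 and 268 to 480, 487 and 628 (0.82 ± 0.19), and fell short without sham Balb/cJ 2 or Balb/cByJ 3, at 0.70 to 0.87. Pdk4, which restrains pyruvate oxidation, was not called (1.82 ± 0.97). Its sham groups did not overlap, at 14612, 9608 and 13206 in Balb/cJ and 41832, 47744 and 40975 in Balb/cByJ, while its TAC Balb/cJ values ran from 1593 to 30649.

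Scd4, a stearoyl-CoA desaturase of the heart, went from 95, 108 and 154 in sham Balb/cJ to 776, 1184 and 1063 in sham Balb/cByJ (3.08 ± 0.61, adjusted p = 0.0184, limma). Mlxipl, which encodes the glucose-sensing factor ChREBP, fell from 904, 652 and 718 to 450, 393 and 453 (-0.80 ± 0.14, adjusted p = 0.0122, limma). Of 36 genes of glycolysis and glucose use, 4 were lower (Pfkl, Gapdh, Pfkp and Eno1), none higher, and the median was -0.19. The share called was 11.1%, near the 8.37% over all genes. Pfkl, a phosphofructokinase, was at 5945, 8619 and 7372 against 4311, 4160 and 4451 (-0.75 ± 0.12). Gapdh was at 38888, 61074 and 50761 against 30297, 27934 and 31374 (-0.73 ± 0.15), a value that near-identical copies make uncertain. Eno1 and Pfkp lost the call without any of 5 sham libraries each, at -0.85 to -0.28, and with total rescaling. Sham Balb/cJ 2 had the highest value among the sham libraries for each of the 4 genes.

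**Figure D3:**
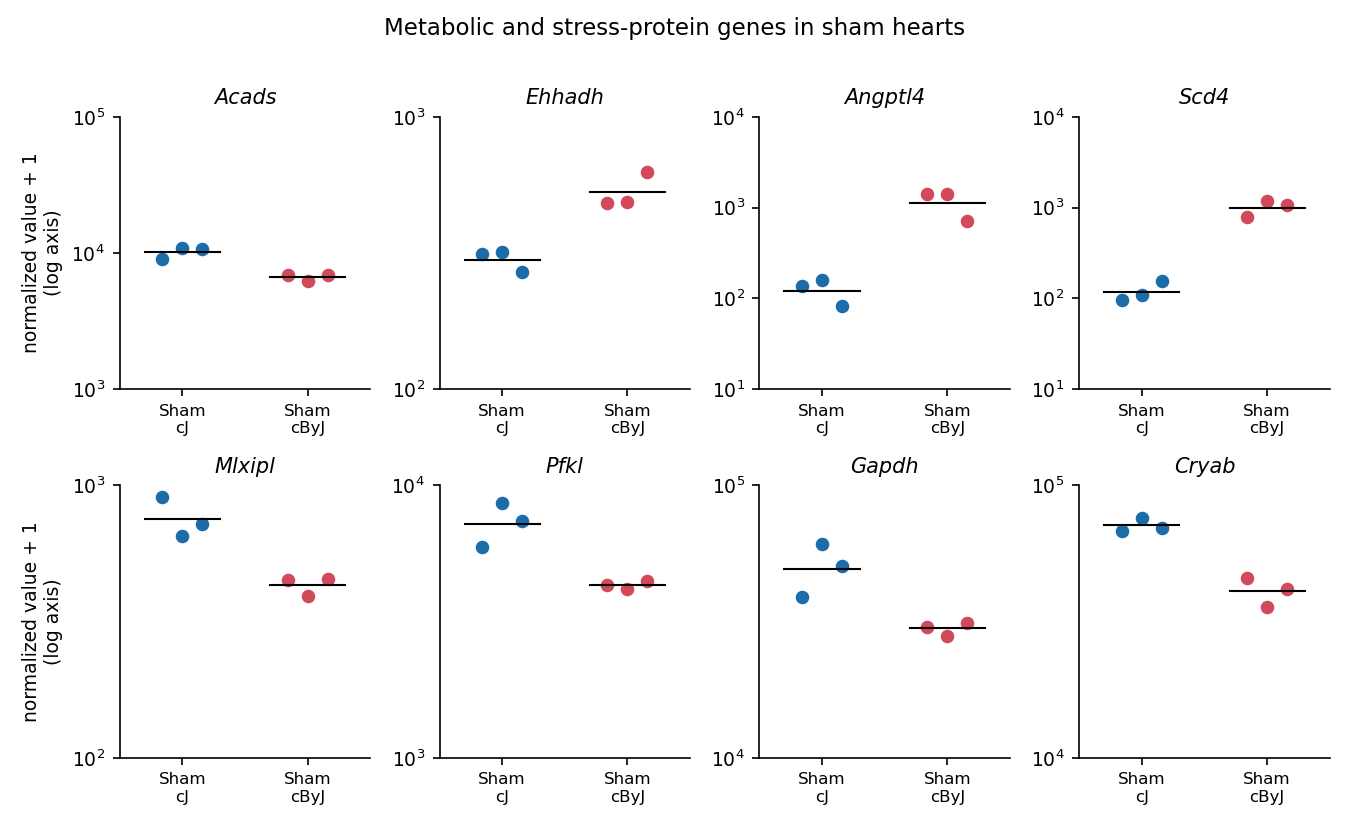
Normalized value + 1 on log axes for 8 metabolic and stress-protein genes in the 6 sham libraries, with lines at the means of the log values. The groups do not overlap in any of the 8 panels, with Scd4 at 95 to 154 in Balb/cJ and 776 to 1184 in Balb/cByJ.

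None of 15 ventricular markers was called, and Myl2, the ventricular regulatory light chain, was at 297486, 466863 and 368328 in sham Balb/cJ and 314628, 237264 and 320311 in sham Balb/cByJ. The stress and fetal list had 2 of 27 genes higher and 4 lower (22.2% called, against 8.37% over all genes). Mybphl, a myosin-binding protein of atrial muscle, was at 45, 48 and 59 in sham Balb/cJ and 736, 2329 and 229 in sham Balb/cByJ (3.84 ± 0.94). Lgals3, the lectin galectin-3, which macrophages also make, was at 85, 111 and 89 against 376, 1079 and 285 (2.36 ± 0.61). These were the largest differences of the list. Each lost the call without 3 of the sham libraries, at adjusted p of up to 0.158 for Mybphl and 0.18 for Lgals3 by limma. Tnfrsf12a, the TWEAK receptor, fell from 2971, 2686 and 2966 to 2083, 1299 and 1491 (-0.85 ± 0.18, adjusted p = 0.0225, limma). Acta1, skeletal alpha-actin, and Nppb, which encodes brain natriuretic peptide, differed by -1.21 ± 0.35 and -0.81 ± 0.25. Acta1 lost the call without any sham library, at -1.33 to -1.03, and Nppb without 4 of them, at -0.80 to -0.62. Nppa, which encodes atrial natriuretic peptide, was at 12232, 8401 and 18449 against 14517, 58863 and 2851, so the groups overlapped.

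Across the heat shock and unfolded protein list 4 of 33 genes were lower and 1, Pdia6, higher, with a median of -0.02. The share called was 15.2%, against 8.37% over all genes. Cryab, the small heat shock protein alphaB-crystallin, had values of 68003, 76110 and 69848 in sham Balb/cJ and 45743, 35638 and 41647 in sham Balb/cByJ. The difference was -0.80 ± 0.16 (adjusted p = 0.0165, limma). Hspb7, Hspb1 and their co-chaperone Bag3 were lower by 0.43 to 0.65 on the log2 scale, but each lost the call without 3 or 4 of the sham libraries. Neb, the giant thin-filament protein nebulin of skeletal muscle, fell from 325, 152 and 136 to 48, 46 and 49 (-1.96 ± 0.36). Of 11 tested skeletal muscle markers 2 were lower (Neb, Acta1) and 1, Pvalb, was higher (27.3% called, against 8.37% over all genes). Pvalb differed by 2.22, and its call was lost without 3 of the sham libraries, at 1.72 to 2.14. Skeletal muscle markers summed to 318252 to 389796 in sham Balb/cJ and 173294 to 239273 in sham Balb/cByJ, with Myh4 at 0 in all sham libraries. That list shares Ckm with the ventricular markers and Acta1 with the stress and fetal list, so its sums are not specific to skeletal muscle. The part of skeletal muscle in these differences was not tested.

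In the contraction and calcium list 5 of 39 genes were higher and 1 lower (15.4% called, against 8.37% over all genes). Fkbp1b, which binds the ryanodine receptor, rose from 23, 21 and 8 to 66, 106 and 61 (2.18 ± 0.38) and kept the call without each sham library in turn. Kcnd2, a channel of the transient outward potassium current, rose from 723, 757 and 900 to 1279, 1204 and 1513 (0.75 ± 0.18). Its call was lost without sham Balb/cJ 2 or Balb/cByJ 3, at 0.65 to 0.72. Pde3a, Camk2d and the calcium-binding S100a1 lost the call without 3 or more sham libraries. Ryr2 and Atp2a2, the release channel and the pump of the sarcoplasmic reticulum, were at 0.04 ± 0.17 and 0.08 ± 0.24.

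Large differences were found in genes of atrium, valves and epicardium. Of 25 atrial and conduction genes 23 passed the filter, and 8 were higher and none lower (34.8% called, against 8.37% over all genes). Sln, which encodes sarcolipin, a regulator of the calcium pump in atrial muscle, was at 2, 8 and 0 in sham Balb/cJ and 1576, 6466 and 64 in sham Balb/cByJ. The difference was 8.18 ± 1.60 (adjusted p = 0.0177, limma), and it was 8.63 with a pseudocount of 0.5 and 6.86 with 5. After TAC without library 6 it was -0.34 ± 1.84. Dkk3, a secreted glycoprotein abundant in atria, went from 268, 197 and 200 to 1537, 4586 and 1006. Its difference after TAC without library 6 was 0.29 ± 0.61, not called. Calls of Cacna1d, Hcn4, Myl4 and Hamp were lost without 2 to 4 of the sham libraries, at 0.76 to 5.46. The sums of all atrial genes, in which abundant members weigh most, were 35216 to 44822 in sham Balb/cJ and 28738 to 138420 in sham Balb/cByJ. These sums overlapped. The mean log2 level of Myl7, Sln and Myl4 did not overlap. It was 3.68, 4.62 and 3.55 in sham Balb/cJ and 11.88, 13.74 and 7.65 in sham Balb/cByJ.

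Of 28 genes of valve and tendon-like matrix measured, 23 passed the filter. Of these 12 were higher, 1 (Thbs4) was lower and 10 were not called (56.5% called, against 8.37% over all genes). Fmod, the collagen-binding proteoglycan fibromodulin, had values of 12, 17 and 8 in sham Balb/cJ and 339, 1017 and 491 in sham Balb/cByJ, a difference of 5.43 ± 0.53 (adjusted p = 0.000998, limma). It was at 365, 493 and 1531 in TAC Balb/cJ and 695, 1468 and 623 in TAC Balb/cByJ, and its difference after TAC without library 6 was 0.63 ± 0.60. Chad, the cartilage matrix protein chondroadherin, was at 2, 1 and 1 against 28, 126 and 39 (4.53 ± 0.62). Hapln1, a hyaluronan link protein of valves, was listed at 0 in all sham Balb/cJ libraries and at 48, 43 and 7 in sham Balb/cByJ. Wif1, a secreted WNT inhibitor, was already expressed in sham Balb/cJ at 635, 548 and 593 and rose to 1510, 1951 and 1756 (1.55 ± 0.20, adjusted p = 0.00342, limma). After TAC without library 6 the differences of Chad, Hapln1 and Wif1 were 0.37 ± 0.73, 1.00 ± 0.67 and 0.39 ± 0.22, none called. Cilp2 lost its call without sham Balb/cJ 2, Balb/cJ 3, Balb/cByJ 1 or Balb/cByJ 2, at 3.06 to 4.43.

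Epicardial and mesothelial genes were higher at 7 of 13 tested, of 15 in the table, and lower at 1 (61.5% called, against 8.37% over all genes). Upk3b, a uroplakin of mesothelium, was at 10, 13 and 5 in sham Balb/cJ and 113, 123 and 98 in sham Balb/cByJ (3.52 ± 0.40, adjusted p = 0.00138, limma). Lrrn4 was at 1, 1 and 0 against 26, 35 and 24 (4.19 ± 0.46). After TAC without library 6 the differences of Upk3b and Lrrn4 were 0.57 ± 0.46 and 1.23 ± 0.51, neither called. Upk3b was at 150, 76 and 268 in TAC Balb/cJ. Aldh1a2, the retinoic acid synthesis enzyme of epicardium, went the other way, from 260, 211 and 197 to 100, 104 and 109 (-1.08 ± 0.24). It was lower after TAC too, at -1.51 ± 0.27 without library 6. The sums of the list were 437 to 572 in sham Balb/cJ and 634 to 722 in sham Balb/cByJ. Of 13 tested fat cell genes 1, Car3, was higher (7.69% called). The list shares Fabp4 with the endothelial markers, so its sums are not specific to fat. They were 21282 to 28140 in sham Balb/cJ and 19465 to 21430 in sham Balb/cByJ. Adipoq, which encodes adiponectin, was at 44, 23 and 2 there and at 4, 2 and 3 in sham Balb/cJ, and was not called at 1.92 ± 0.97. Without sham Balb/cByJ 3 it was called, at 3.07. How much these markers' shift with substrain contributes to the other differences was not tested.

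**Figure D4:**
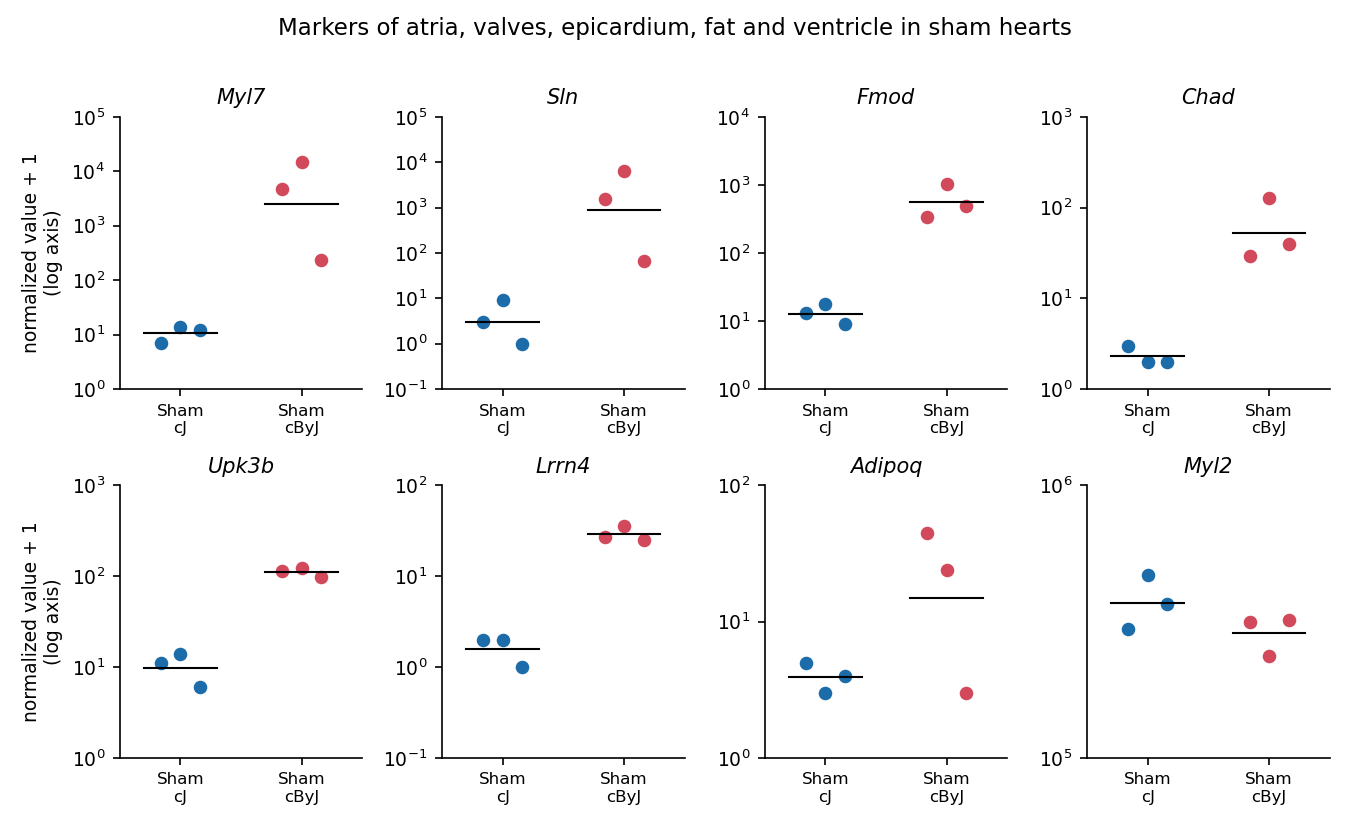
Normalized value + 1 on log axes for markers of atria (Myl7, Sln), valve matrix (Fmod, Chad), epicardium (Upk3b, Lrrn4), fat (Adipoq) and ventricle (Myl2) in the 6 sham libraries, with lines at the means of the log values. Myl7 and Sln are highest in sham Balb/cByJ 2 and lowest of that group in Balb/cByJ 3, while Upk3b lies at 98 to 123 in all 3.

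Fibrosis genes and vessels showed scattered differences. Of 68 matrix genes 3 were higher (Spp1, Mmp3, Col12a1) and 5 lower, with a median of -0.04 that became 0.04 with total rescaling. The share called was 11.8%, near the 8.37% over all genes. Mmp3, the matrix-degrading stromelysin, rose from 117, 131 and 131 to 491, 1327 and 617 (2.54 ± 0.45, adjusted p = 0.0116, limma). Col22a1, a collagen of tissue junctions, fell from 163, 70 and 87 to 7, 26 and 5 (-3.21 ± 0.49, adjusted p = 0.00627, limma). Thbs4, a thrombospondin induced in stressed muscle, fell from 1017, 1255 and 1751 to 353, 627 and 429 (-1.52 ± 0.29). Fbln2 and P4ha1 lost the call without 3 or 4 of the sham libraries, at -0.85 to -0.39. Col1a1 was at 5347, 4161 and 2717 against 2683, 5522 and 3507. Of 25 endothelial markers, Vwf, which encodes von Willebrand factor, was higher at 5311, 6256 and 4300 against 3121, 2127 and 2468 (1.04 ± 0.17, adjusted p = 0.00853, limma). Ly6c1, Robo4, Gpihbp1 and Esam, genes of capillary endothelium, were lower by 0.39 to 0.91, and lost the call without 1 to 5 of the sham libraries, at -0.83 to -0.33. Robo4 and Esam also lost it with total rescaling. In all, 1 of the 25 endothelial markers was higher and 4 were lower, where 8.37% of all genes were called. The median of these markers was -0.03, and it became 0.05 with total rescaling and 0.14 without sham Balb/cJ 1.

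Immune and secreted factors were mixed. None of 8 tested lymphocyte markers, 23 immediate-early genes or 19 clock genes was called. Of 47 interferon and antigen presentation genes 1 was lower (Tap2), and of 34 cytokine and acute phase genes 2 were (Hp and Osmr). These shares were 2.13% and 5.88%, against 8.37% over all genes. Of 10 tested mast cell and granulocyte markers 3 were higher (30.0%, against 4.27% over all genes). These were the mast cell proteases Mcpt4, Cma1 and Cpa3, at 1.39 to 1.66, and each lost the call without 3 or 4 sham libraries, at 1.10 to 1.65. C7, a terminal complement component, fell from 740, 634 and 707 to 201, 338 and 140 (-1.70 ± 0.34, adjusted p = 0.0196, limma). Of 23 complement genes 2 were higher and 2 lower (17.4% called). In the growth factor list 5 of 35 genes were higher and 1 lower (17.1% called), where 8.37% of all genes were called. Fst, the activin antagonist follistatin, rose from 10, 5 and 10 to 25, 28 and 19 (1.46 ± 0.37), and Igfbp5 from 3736, 2043 and 2195 to 5166, 6208 and 4066 (0.99 ± 0.25). All 6 calls of that list were lost without 3 or more sham libraries, at -0.53 to 3.76. Of 80 ribosomal protein genes 4 were lower and none higher (5.0% called), with a median of -0.24 and 3 above 0. Their summed levels overlapped, at 379570, 487981 and 437732 in sham Balb/cJ and 388226, 365357 and 355491 in sham Balb/cByJ. Rps12, Rps13 and Rps16 each lost the call without 4 or 5 sham libraries, at -0.47 to -0.23.

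**Figure D5:**
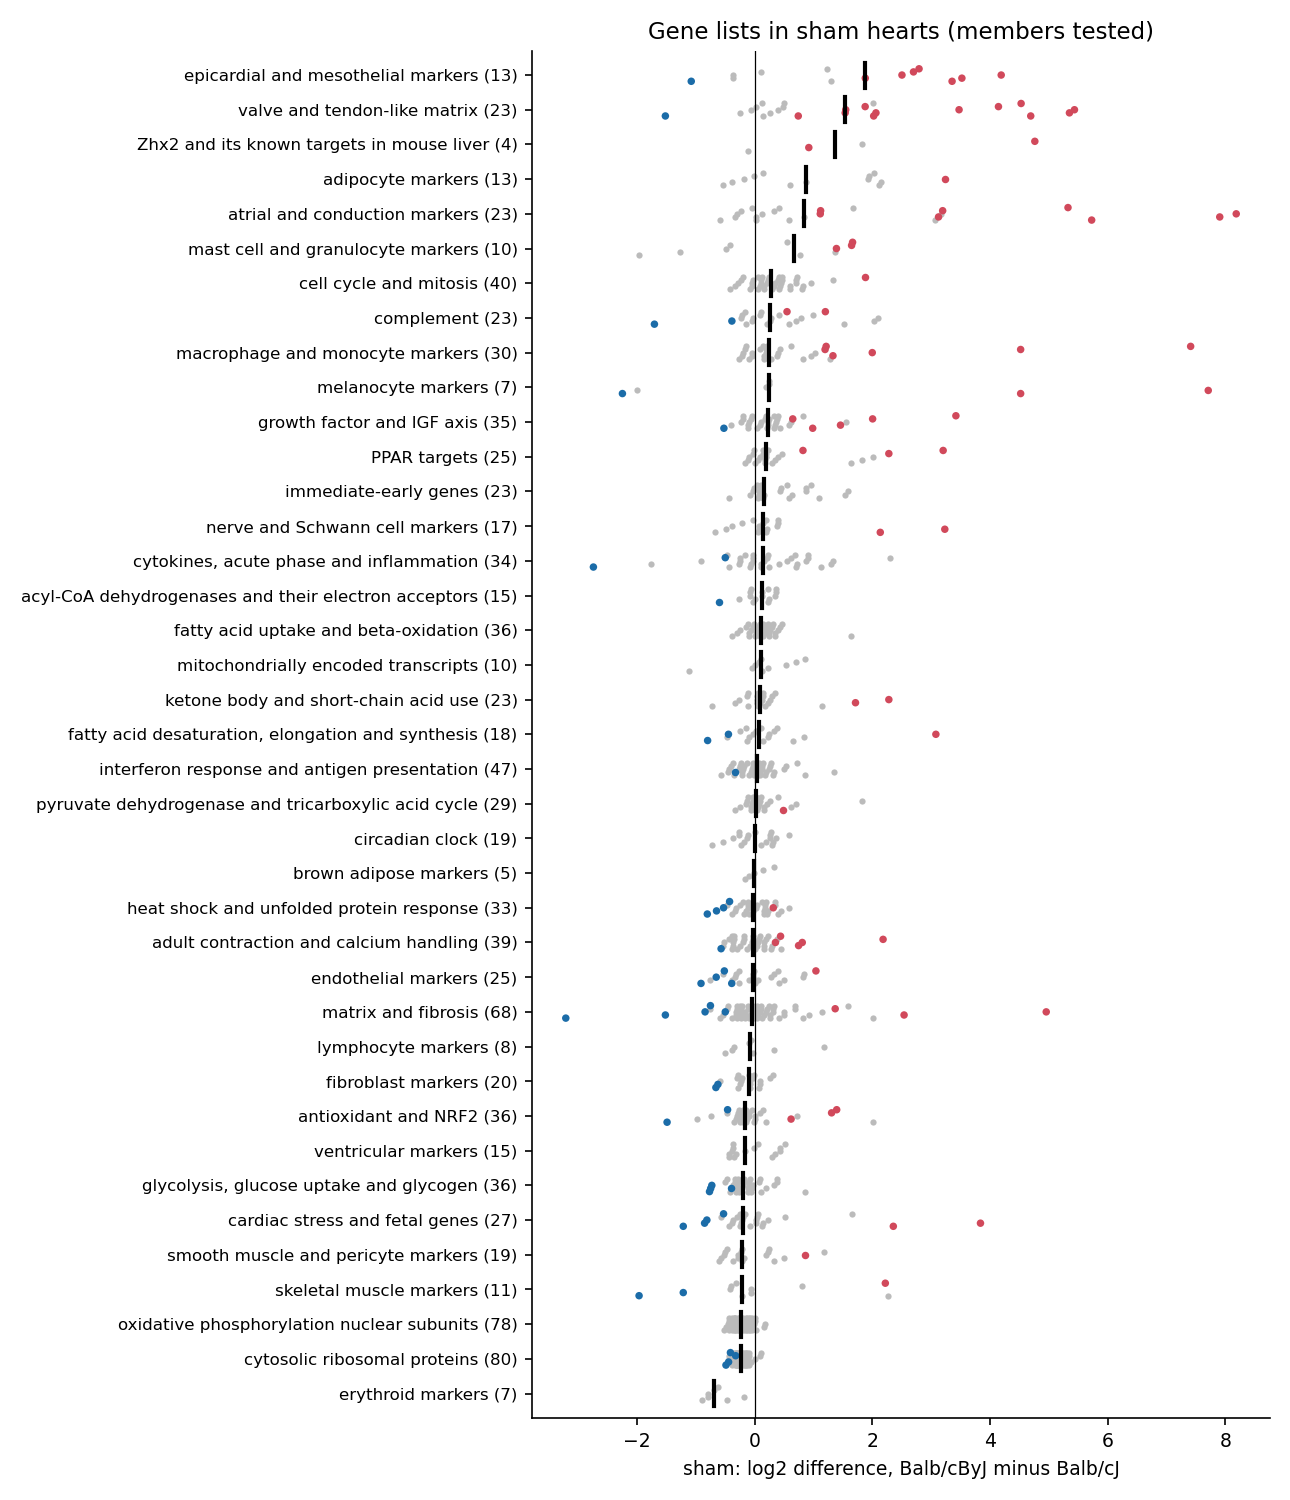
Log2 difference between sham Balb/cByJ and sham Balb/cJ for the tested members of 39 gene lists, ordered by median (black bar), with called genes in red (higher) and blue (lower). Epicardial and valve lists have the highest medians, 1.88 and 1.54, and erythroid markers the lowest, -0.69.

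Other genes with large differences belonged to none of these groups. Inmt, a methyltransferase for indoles, rose from 73, 62 and 38 to 500, 527 and 429 (3.10 ± 0.50), and Aldh1l1, a folate enzyme, from 69, 26 and 48 to 275, 357 and 198 (2.58 ± 0.38). Both were also called after TAC without library 6. Cuzd1 fell from 347, 301 and 331 to 48, 61 and 58 (-2.53 ± 0.47) and Shisa3, an inhibitor of WNT and FGF receptors, from 371, 319 and 325 to 88, 111 and 52 (-2.07 ± 0.40), again after both surgeries. Grin2c, a glutamate receptor subunit, fell from 212, 266 and 292 to 53, 69 and 36 (-2.30 ± 0.25, adjusted p = 0.00135, limma). It was at 83, 86 and 135 in TAC Balb/cJ, and its difference after TAC without library 6 was -0.44 ± 0.29. The interaction for Grin2c was not called, at 1.83 with an adjusted p of 0.257 by limma.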

How the data were processed

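RNA from mouse hearts had been made into stranded mRNA libraries from total RNA, per the labels' protocols. Reads were handled with STAR, Subread featureCounts and DESeq2 on the mouse build mm10, according to notes from the submitters. The sources used here give no versions, strand setting or annotation release, so overlapping and near-identical genes can share reads. Gene values are scores as deposited: the gaps between low values show that the authors scaled whole read counts per library and rounded them. Totals were not made equal. The median ratio of a library's values to the geometric means over libraries was 1.002 to 1.004. The authors' own log2 fold changes and p-values for TAC against sham, from DESeq2 per the submitters' processing notes, were deposited beside them and not used. The table held 27179 genes, 20278 above 0. Sham columns carried the titles' numbers. TAC columns carried other numbers than the titles and were assigned by strain and surgery only.

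The members and the gene lists were chosen with earlier results of these data known. The planned count test was replaced, as the plan foresaw for normalized values, by limma 3.58.1 (eBayes with a trend, R 4.3.3) on log2(value + 1), where 1 is the pseudocount. Genes with a mean of at least 10 were kept (14038). All 12 libraries entered, leaving 8 residual degrees of freedom, and a gene was called at an adjusted p under 0.1, the 10% of the series' design text. Log2 differences understate the change of low genes.

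Genes were named by a rule. It took the 15 largest rises, the 15 largest falls and the 15 largest also called after TAC. These had to be called, with a mean of at least 50 over the sham libraries, groups that do not overlap and no predicted gene. Up to 6 called members per list and the called genes of 3 windows of 5 Mb were added without those filters on mean, overlap and prediction. Some of them therefore have low values. Any other gene was chosen after its values were seen. Of 1092 listed genes 1071 were in the table. Promoters came from RefSeq (GRCm38.p6), which matched 99 of 137 named genes. Zhx2, Mlana, Atp6v0d2 and Angptl4 had no entry. Some genes are not reported here. Same-numbered sham libraries did not deviate together (r across genes of -0.21, -0.07 and 0.17), so no pairing was used. The fit was tested on simulated data. Python 3.11.15 with pandas 2.3.3 and matplotlib 3.10.9 made summaries and plots.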

Additional observations from a re-analysis of the deposited data

Results flagged for a closer look

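Prss35, a secreted serine protease homologue on chromosome 9, was the 1 gene (0.00712% of genes tested) whose strain difference after TAC differed from that after sham in the interaction test. It had values of 0, 0 and 1 in sham Balb/cJ, 38, 73 and 43 in sham Balb/cByJ, 69, 32 and 76 in TAC Balb/cJ and 42, 56 and 113 in TAC Balb/cByJ. The 3 sham Balb/cJ libraries were the low ones. The strain difference was 5.32 ± 0.47 after sham (adjusted p = 0.000542, limma) and 0.22 ± 0.47 after TAC (adjusted p = 0.922, limma). The interaction was -5.10 (adjusted p = 0.0627, limma), and -5.50 without the library labelled TAC Balb/cByJ 6 (adjusted p = 0.0393, limma). The sham Balb/cJ libraries were also the low ones for Myl7, Sln, Fmod and Chad, and the part of those markers in this result was not tested.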

How the results depend on the processing

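Between the sham groups 1175 genes were called (599 higher, 576 lower). The count stayed within 1.5 times under other scalings, filters, pseudocounts and variance models, except that 282 genes were lower with total rescaling. The same held with only the 6 sham libraries, and without the library labelled TAC Balb/cByJ 6. At an adjusted p of 0.05 the count was 568 (305 higher, 263 lower), and with the log atrial covariate 35 (10 higher, 25 lower). Leaving out 1 sham library gave 321 to 1606 calls (185 to 713 higher, 136 to 893 lower). The replicate block, whose numbers did not pair the libraries, gave 945 (523 higher, 422 lower). After TAC 1 gene was called, and 0 to 75 when 1 TAC library was left out. The interaction count was 1, and 0 with no filter, a pseudocount of 5, total rescaling, no trend, the replicate block or the log covariate, 7 with the linear covariate and 0 to 4 without 1 library. For Acads the log covariate gave -0.49 (not called), and fits without 1 sham library gave -0.69 to -0.55, not called without sham Balb/cJ 2, sham Balb/cJ 3 and sham Balb/cByJ 2. The genes that turned sign did so with the log atrial covariate, namely Car3 (-0.89), Cilp2 (-0.77), Hamp (-1.65), Mybphl (-0.56), Myl4 (-1.33) and Nppa (-4.09). Myl4 is itself part of that covariate, so its value there cannot be read as a strain difference. The cause of the other sign changes was not tested. Of the 132 called genes named, 8 kept their call under every alternative. The planned count models and their scalings were not run, as the values are not counts. Low values limit the sizes given for Mmp12, Mlana and Sln.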
